A study of Mus musculus with 8 samples.

Results

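Interferon-stimulated genes were examined in the cortex of APP/PS1 mice, a transgenic line that carries Alzheimer-linked human genes and deposits amyloid plaques. The 38 genes were taken by symbol from a list of typical interferon targets, chosen with earlier results of these data known. Each was represented by its transcript row with the highest mean count over the 8 libraries. All 38 were found among the 22869 gene symbols of the deposited table, and all 38 were among the 16069 genes that passed the filter on low counts. All mice were APP/PS1 on the C57BL/6 strain. The 4 libraries called bexarotene came from mice given that drug, an agonist of retinoid X receptors, and the 4 called vehicle came from mice given glycerol at 0.2 mg/kg. The drug's dose and duration, the age and sex of the mice, the promoter of the transgenes and whether a library held 1 animal or several were not stated in the labels used. The p-values therefore measure the spread between these libraries, which may be technical in part.

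Interferons are secreted proteins that cells release when they sense foreign or misplaced nucleic acid. Type I interferons bind the receptor pair Ifnar1 and Ifnar2, whose kinases activate transcription factors that include Stat2. With Irf9 these bind a DNA element, the interferon-stimulated response element (ISRE), near the start of their target genes. In the brain, microglia are prominent responders, and interferon-stimulated genes are known to be expressed in microglia around amyloid plaques.

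Promoter sequences of 5 of the genes are shown because the ISRE is what links such genes to 1 signal, and because these genes differed in their response below. Each run is the 250 bases before the RefSeq start site in GRCm38.p6, 5′ to 3′ on the gene's strand, and capitals mark the searched ISRE letters, GAAA, any 2 bases and GAAA, on either strand. The counts were made on mm9, so these coordinates do not apply to them.

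Isg15 (chr4:156200819-156201068, minus strand): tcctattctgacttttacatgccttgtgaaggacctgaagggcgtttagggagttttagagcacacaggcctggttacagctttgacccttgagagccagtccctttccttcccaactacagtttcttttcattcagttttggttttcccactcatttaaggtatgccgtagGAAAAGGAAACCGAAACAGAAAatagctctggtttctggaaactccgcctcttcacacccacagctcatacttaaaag
Ifit3 (chr19:34583279-34583528, plus strand): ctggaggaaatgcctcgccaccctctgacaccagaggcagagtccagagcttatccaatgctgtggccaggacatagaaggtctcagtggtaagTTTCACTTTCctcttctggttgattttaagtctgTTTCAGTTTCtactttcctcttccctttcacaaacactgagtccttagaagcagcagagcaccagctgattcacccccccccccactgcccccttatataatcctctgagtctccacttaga
Bst2 (chr8:71537473-71537722, minus strand): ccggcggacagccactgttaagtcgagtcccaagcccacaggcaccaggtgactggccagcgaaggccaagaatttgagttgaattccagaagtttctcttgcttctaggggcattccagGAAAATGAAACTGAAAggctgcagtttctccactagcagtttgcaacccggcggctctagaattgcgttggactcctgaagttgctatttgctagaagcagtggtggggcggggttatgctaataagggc
Irgm1 (chr11:48871421-48871670, minus strand): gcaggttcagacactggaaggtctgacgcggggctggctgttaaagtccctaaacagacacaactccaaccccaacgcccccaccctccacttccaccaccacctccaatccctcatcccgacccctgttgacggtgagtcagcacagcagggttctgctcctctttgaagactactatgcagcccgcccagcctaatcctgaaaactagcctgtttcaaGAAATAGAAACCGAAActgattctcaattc
Stat2 (chr10:128270248-128270497, plus strand): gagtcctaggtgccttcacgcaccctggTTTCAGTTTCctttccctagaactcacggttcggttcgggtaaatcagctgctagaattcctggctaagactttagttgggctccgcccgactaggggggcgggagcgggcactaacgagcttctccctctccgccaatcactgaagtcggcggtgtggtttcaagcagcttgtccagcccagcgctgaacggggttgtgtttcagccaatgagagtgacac

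In Isg15 3 overlapping matches began 78, 72 and 66 bases before the start site, and in Irgm1 2 overlapping matches began 30 and 24 bases before it. In Bst2 2 overlapping matches began 130 and 124 bases before it, in Ifit3 2 separate matches began 156 and 122 bases before it, and in Stat2 1 match began 222 bases before it. The sequence at the RefSeq start was found near a GENCODE transcript start for Isg15 and Irgm1, but not for Bst2, Ifit3 and Stat2. For Bst2, Ifit3 and Stat2 the distances thus rest on the RefSeq start alone. Of the 38 genes, 28 had a promoter entry, and 11 of these held those letters in such a window. Over all 32851 windows of the same length 2.98% held it. The letters TTC, any 3 bases and GAA, of the element bound by Stat dimers, read the same on both strands and were in windows of 6 of the 28 genes, against 7.02% of all windows. The 2 motifs overlapped in 18 of all windows. No entry was found for Zbp1, Ifi27l1, Ifi27l2a, Parp14, Dhx58, Usp18, Iigp1, Rtp4, Mx2 and Mx1. The median log2 fold change was 0.90 for the 11 genes with the letters and 0.49 for the 17 without, with ranges from 0.05 to 1.55 and from -0.05 to 2.30. For the 10 genes with no entry it was 0.96, above both. The check of the start site also failed for Oas1a among the 11, and for Oasl2, Herc6 and Irf7 among the 17. Their windows rest on the RefSeq start alone, and the contrast of medians was not tested.

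The libraries stood apart in ways the groups do not explain. Table totals ran from 60106192 to 76542067 counts in the bexarotene and from 42413825 to 60955403 in the vehicle libraries. On the first principal component (36.5% of the variance) the 4 libraries numbered 1 or 3 separated from the 4 numbered 2 or 4, whatever the group. Xist, which marks female cells, reached 248 and 307 CPM (read counts scaled to a common library size) in vehicle replicates 1 and 3 and at 0.861 CPM or less in the other 2 vehicle libraries, while all 4 bexarotene libraries held both Xist and Y-linked transcripts. The 7 of 8 neuronal markers found were counted in every library. Summed striatal markers reached 1244 and 910 CPM in bexarotene replicates 1 and 3 and 651 CPM in vehicle replicate 1, against 214 to 319 CPM in the other 5 libraries. Bexarotene replicates 1 and 3 correlated at 0.993 (Pearson, log2 CPM), the highest of the replicate pairs, but differed by more than sampling noise (chi-square of 11.1 per degree of freedom) and were kept as 2 samples.

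Under bexarotene the interferon-stimulated genes were mostly higher, but 0 of 38 passed the test over all genes. Of the 38, 36 had a log2 fold change above 0, against 50.2% of all genes tested, and the median was 0.86, against 0.00092 over all genes. The 38 genes were chosen with earlier results of these data known, so these contrasts describe the list and do not test it. In edgeR's quasi-likelihood test the smallest adjusted p was 0.36, for Bst2, and over all genes the share called higher was 0.00622%, a single gene. At an unadjusted p below 0.05, 23 of the 38 were higher and 0 lower, against 4.88% higher and 3.89% lower over all genes, and the fitted folds of these 23 ran from 1.37 to 4.93. In bulk tissue, more cells of a responding type and more RNA per cell cannot be told apart.

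**Figure D1:**
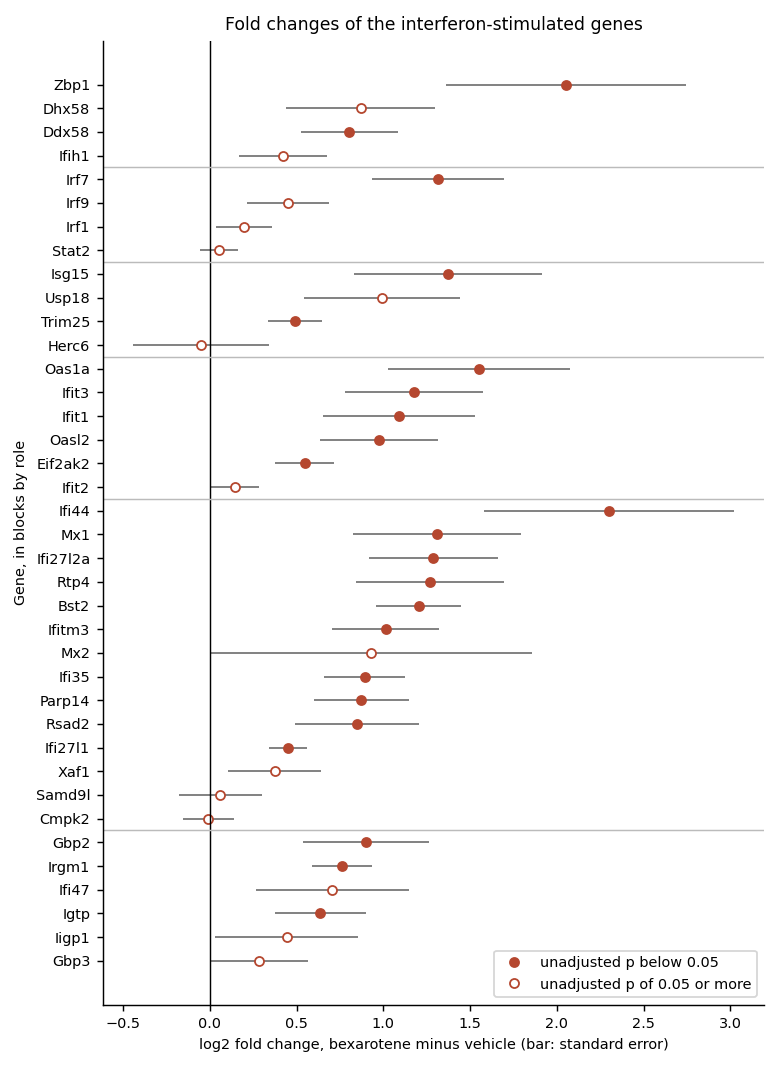
Log2 fold change (x axis, bexarotene minus vehicle, 4 libraries each, with standard error) of the 38 genes in blocks by role. 36 of 38 points lie above 0, led by Ifi44 at 2.30 and Zbp1 at 2.05, while Stat2, Samd9l, Cmpk2 and Herc6 lie within their standard error of 0.

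The level of the group was uneven among the bexarotene libraries. Averaged over the 38 genes, the log2 level relative to the mean of all 8 libraries in replicate order was 0.86, -0.19, 0.78 and 0.10 for bexarotene and -0.57, -0.35, -0.34 and -0.29 for vehicle. Bexarotene replicates 1 and 3 lay far above all others, replicate 4 lay above the vehicle libraries, and replicate 2 was not separated from them. Without Mx2, which had 0 counts in vehicle replicate 4, the means of bexarotene replicate 2 and vehicle replicate 4 were both -0.18, and the medians over the 38 genes were -0.23 and -0.073. The difference of the group means was 0.77, with an SD of 0.52 among bexarotene and 0.12 among vehicle libraries. In 31 of the 38 genes the 2 highest libraries were bexarotene replicates 1 and 3, against 12.6% of all genes. Of the 38 genes, 34 exceeded every vehicle library in bexarotene replicate 1, 35 in replicate 3, 16 in replicate 4 and 7 in replicate 2.

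**Figure D2:**
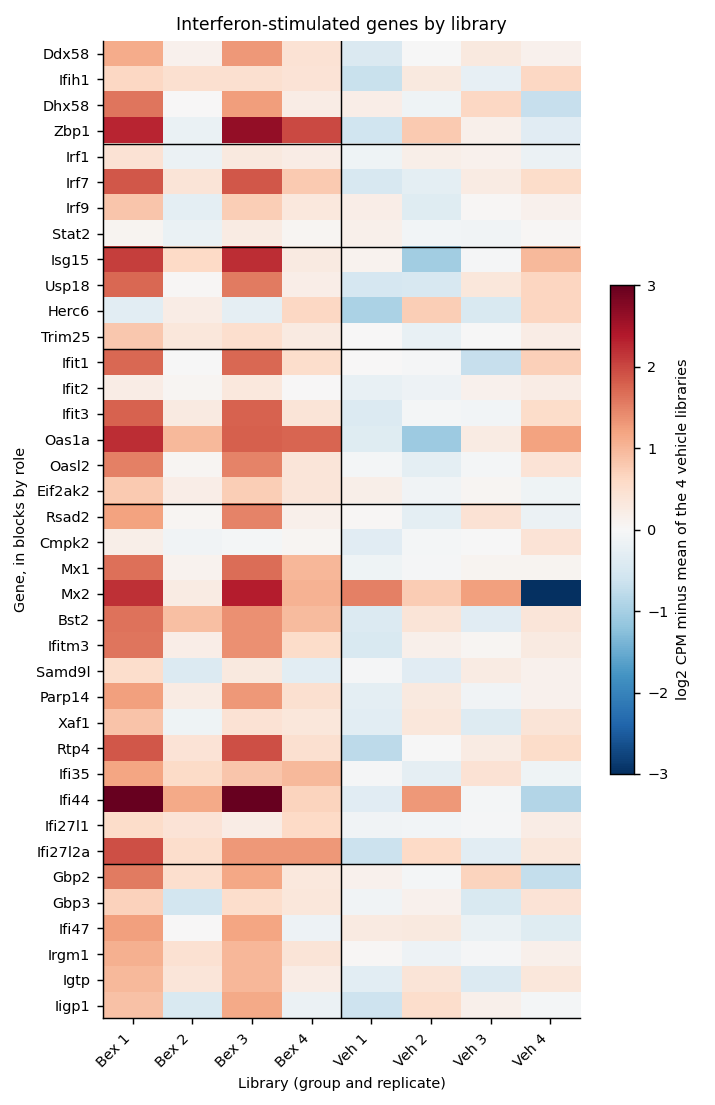
Log2 CPM of each gene (rows, in blocks by role) in each library (columns), minus its mean over the 4 vehicle libraries, with colours capped at -3 and 3. Columns Bex 1 and Bex 3 are dark red in most rows, and Bex 2 and Bex 4 are pale in most.

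In 7 of the 38 genes all 4 bexarotene libraries exceeded all 4 vehicle libraries, against 3.61% of all genes, and in 0 did they all lie below, against 2.16%. The 7 genes were Bst2, Irgm1, Ifi35, Ifi27l1, Eif2ak2, Trim25 and Mx1.

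Bst2, or tetherin, holds budding enveloped viruses at the cell surface. Its levels in replicate order were 10.2, 6.21, 8.63 and 6.42 CPM under bexarotene and 2.49, 4.34, 2.58 and 4.22 CPM under vehicle. The lowest bexarotene library was thus above the highest vehicle library, although replicates 1 and 3 again led their group. The means were 7.87 ± 1.91 and 3.41 ± 1.01 CPM (SD, n = 4), and the fitted ratio was 2.30. The log2 fold change was 1.20 ± 0.25 (SE; edgeR quasi-likelihood adjusted p = 0.36), and the exact two-sided permutation test gave p = 0.0286, the smallest it can give with 4 against 4. Any gene whose groups do not overlap gets this value, so it only restates the lack of overlap. DESeq2 called Bst2 higher with an adjusted p of 0.00457, and so did edgeR's exact test with 0.0184.

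Irgm1, an immunity-related GTPase that acts on vacuoles holding pathogens and on autophagy, was at 14.9, 9.74, 14.2 and 9.26 CPM under bexarotene and at 7.27, 6.36, 6.94 and 7.81 CPM under vehicle, in the same order. The vehicle libraries were close together (7.09 ± 0.607 CPM, SD, n = 4) and all bexarotene libraries lay above them. This was a log2 fold change of 0.76 ± 0.17 (SE; edgeR quasi-likelihood adjusted p = 0.362, DESeq2 adjusted p = 0.0241). Bst2 and Irgm1 were the 2 of 33 genes called by DESeq2 among those given an adjusted p, against 0.585% of all genes. Bst2 was the 1 of 38 called by edgeR's exact test, against 0.18% of all genes.

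Ifi27l1, of a family of small mitochondrial proteins, was at 32.1, 28.8, 25.4 and 32.9 CPM under bexarotene and at 20.3, 20.6, 21.2 and 25.2 CPM under vehicle, in replicate order. Bexarotene replicate 3 was here the lowest of its group, so this gene did not follow the split of replicates 1 and 3 from 2 and 4. The log2 fold change was 0.45 ± 0.11 (SE), the smallest of the 7. Ifi35, a partner of the interferon-induced protein Nmi, was at 4.23, 2.77, 3.29 and 3.62 CPM under bexarotene and at 1.79, 1.52, 2.51 and 1.68 CPM under vehicle. It too was not led by replicates 1 and 3, and its log2 fold change was 0.89 ± 0.23 (SE).

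Eif2ak2, the kinase that halts translation on binding double-stranded RNA, was at 7.88, 5.23, 7.59 and 5.80 CPM under bexarotene and at 5.15, 4.20, 4.70 and 4.12 CPM under vehicle. The gap between the groups was narrow, since bexarotene replicate 2 and vehicle replicate 1 almost met. Trim25, a ubiquitin ligase that supports signalling by Ddx58, was at 11.6, 8.28, 9.30 and 7.98 CPM under bexarotene and at 6.58, 5.60, 6.51 and 7.72 CPM under vehicle. Bexarotene replicate 4 was only just above vehicle replicate 4. Mx1, a dynamin-like GTPase that blocks influenza viruses and is defective in C57BL/6 mice, stood at 0.957, 0.309, 0.978 and 0.600 CPM under bexarotene and at 0.259 to 0.305 CPM under vehicle. These low levels limit what Mx1 can show, and its row is a non-coding RefSeq record.

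**Figure D3:**
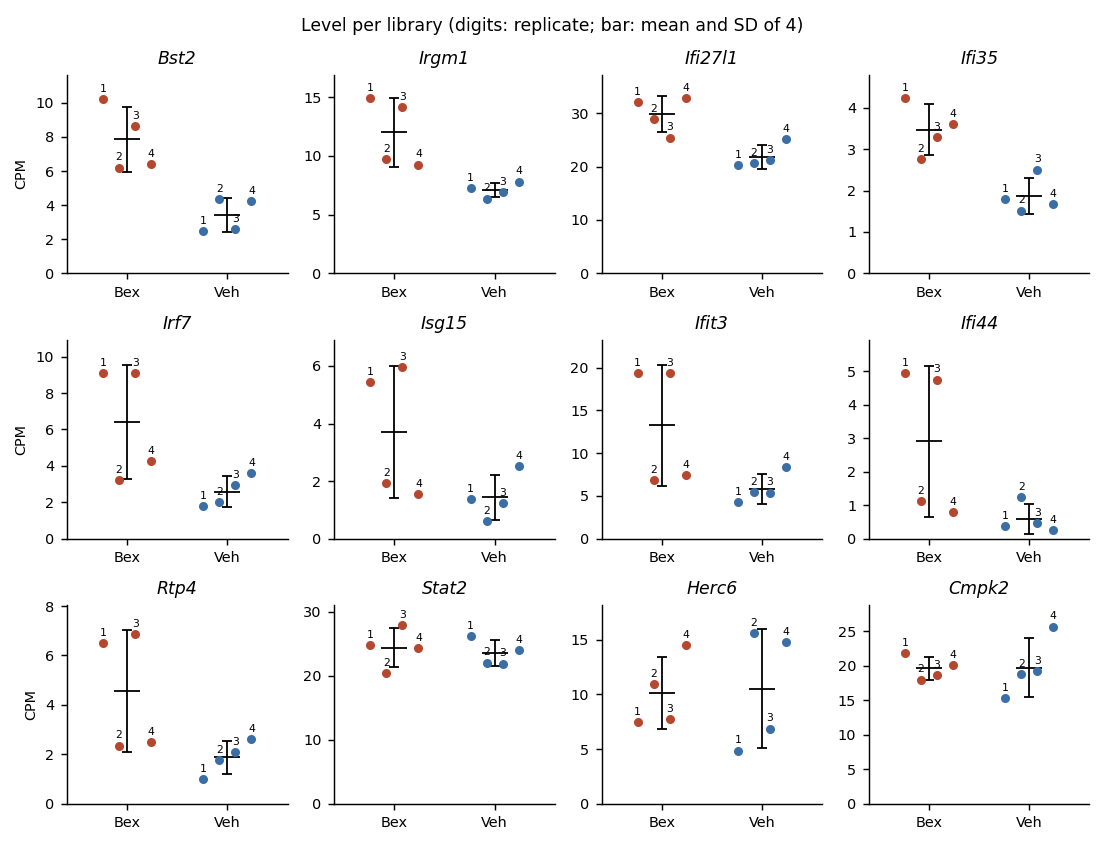
CPM (y axis, from 0) of 12 genes in each of the 4 bexarotene (red) and 4 vehicle (blue) libraries, with the replicate number at each point and the mean and SD. Bst2, Irgm1, Ifi27l1 and Ifi35 do not overlap between groups, Irf7 to Rtp4 are high in bexarotene replicates 1 and 3, and Stat2, Herc6 and Cmpk2 overlap throughout.

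Among the sensors of foreign nucleic acid, 4 of 4 had a log2 fold change above 0. At an unadjusted p below 0.05, 2 were higher, against 4.88% of all genes. Ddx58, or RIG-I, which recognises uncapped viral RNA, was at 6.78, 3.43, 7.75 and 4.22 CPM under bexarotene and at 2.30, 3.08, 3.85 and 3.43 CPM under vehicle. Bexarotene replicate 2 lay inside the vehicle range, and the log2 fold change was 0.80 ± 0.28 (SE). Ifih1, or MDA5, which binds long double-stranded RNA, was even across the bexarotene libraries (5.08 to 5.89 CPM), but vehicle replicate 4 reached 5.88 CPM, and vehicle replicate 1 was at 2.37 CPM. Dhx58, which modulates both, reached 3.38 and 2.69 CPM in bexarotene replicates 1 and 3 and stood at 0.670 to 1.70 CPM in the 6 other libraries. Zbp1, a sensor of left-handed nucleic acid that can trigger necroptosis, was scarce, at 0.894, 0.134, 1.14 and 0.720 CPM under bexarotene and at 0.0941 to 0.293 CPM under vehicle.

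The transcription factors differed among themselves. Irf7, which amplifies type I interferon production and is itself induced, was at 9.10, 3.22, 9.11 and 4.26 CPM under bexarotene and at 1.76, 2.0, 2.92 and 3.62 CPM under vehicle. Only bexarotene replicate 2 lay inside the vehicle range. The fitted difference was 1.31 ± 0.38 on the log2 scale (SE; edgeR quasi-likelihood adjusted p = 0.431). Stat2, part of the complex that binds the ISRE, was at 24.8, 20.4, 27.8 and 24.4 CPM under bexarotene and at 26.2, 22.1, 21.9 and 24 CPM under vehicle. The groups overlapped fully, and the log2 fold change was 0.05 ± 0.11 (SE). Irf9, the DNA-binding part of that complex, had a log2 fold change of 0.45 ± 0.23, with 15.2 and 14.2 CPM in bexarotene replicates 1 and 3 and 6.62 to 10.6 CPM elsewhere. Irf1, which interferon gamma strongly induces, had one of 0.20 ± 0.16. Exons of Irf7 overlap those of Phrf1 on the opposite strand, and Irf9 shares exonic sequence with Rnf31 on the same strand, so part of their reads may be misassigned. The same holds for others: of 37 of the genes found in GENCODE, 8 overlapped another gene's exons on the opposite strand and 6 on the same strand. Ifi35 and Eif2ak2 were among the 8, and Igtp, which overlaps Irgm2, was among the 6.

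Genes of ISG15 conjugation showed both patterns. Isg15, a ubiquitin-like protein that is attached to newly made proteins, was at 5.43, 1.92, 5.96 and 1.55 CPM under bexarotene and at 1.36, 0.603, 1.24 and 2.51 CPM under vehicle. Bexarotene replicates 1 and 3 lay well above all others, while replicates 2 and 4 were below vehicle replicate 4. On the log2 scale the fold change was 1.37 ± 0.54 (SE). Usp18, which removes ISG15 and damps receptor signalling, had a log2 fold change of 0.99 ± 0.45, again with bexarotene replicates 1 and 3 highest (4.50 and 4.05 CPM against 0.941 to 2.13 CPM elsewhere). Herc6, the mouse ligase that attaches ISG15, behaved otherwise: it was at 7.48, 10.9, 7.74 and 14.5 CPM under bexarotene and at 4.87, 15.6, 6.87 and 14.8 CPM under vehicle. In both groups replicates 2 and 4 were the higher ones, and the log2 fold change was -0.05 ± 0.39 (SE), whose sign depended on the fit.

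Of 6 RNA-binding effectors, 6 had a log2 fold change above 0. At an unadjusted p below 0.05, 5 were higher, against 4.88% of all genes. With the replicate number as a block 3 were, against 5.53% of all genes, and Ifit1 and Ifit3 missed that level. Ifit3, which stabilises Ifit1 on viral RNA, was at 19.4, 6.80, 19.4 and 7.44 CPM under bexarotene and at 4.23, 5.43, 5.38 and 8.36 CPM under vehicle. Its partner Ifit1, which binds RNA that lacks cap methylation, was at 7.58, 2.26, 7.67 and 3.31 CPM and at 2.33, 2.22, 1.40 and 3.80 CPM. In both genes bexarotene replicates 2 and 4 lay below vehicle replicate 4. The log2 fold change was 1.18 ± 0.40 (SE) for Ifit3 and 1.09 ± 0.44 for Ifit1. Ifit2 of the same family was flat, at 8.25 to 10.1 CPM under bexarotene and 7.01 to 9.56 CPM under vehicle, with a log2 fold change of 0.15 ± 0.14.

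The 2 oligoadenylate synthetase relatives differed in bexarotene replicate 4. Oasl2, a synthetase-like protein, was at 13.8, 5.05, 13.7 and 6.23 CPM under bexarotene and at 3.93 to 6.45 CPM under vehicle, a log2 fold change of 0.98 ± 0.34 (SE). Oas1a, which makes the messenger that activates RNase L, was at 2.15, 0.887, 1.59 and 1.55 CPM under bexarotene and at 0.189 to 1.06 CPM under vehicle, so that bexarotene replicate 2 alone was inside the vehicle range and replicate 4 was near replicate 3. Fitted, this was a log2 fold change of 1.55 ± 0.53.

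Among the other antiviral effectors, 13 of 14 had a log2 fold change above 0. At an unadjusted p below 0.05, 10 were higher, against 4.88% of all genes. Ifi44, a cytoplasmic protein induced by type I interferon, had the highest fold change of the 38, 2.30 ± 0.72 on the log2 scale. It was at 4.93, 1.12, 4.75 and 0.801 CPM under bexarotene and at 0.376, 1.24, 0.466 and 0.251 CPM under vehicle, so 2 libraries carried the difference. Rtp4, a chaperone of membrane receptors, showed the same picture with 6.49 and 6.86 CPM in bexarotene replicates 1 and 3, 2.35 and 2.51 CPM in replicates 2 and 4, and 1.01 to 2.63 CPM under vehicle. Ifitm3, which blocks viral fusion in endosomes, was at 21.6, 8.14, 18.3 and 10.4 CPM under bexarotene and at 5.13, 7.84, 7.33 and 8.58 CPM under vehicle, and bexarotene replicate 2 was just below vehicle replicate 4. Fitted, this was a log2 fold change of 1.01 ± 0.31.

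Ifi27l2a, a relative of Ifi27l1, had a log2 fold change of 1.29 ± 0.37 (SE), with bexarotene replicate 2 (1.57 CPM) below vehicle replicate 2 (1.65 CPM). Parp14, an ADP-ribosyltransferase, had one of 0.87 ± 0.27. Rsad2, or viperin, makes a nucleotide that ends viral RNA chains, and was at 3.77, 1.71, 4.64 and 1.81 CPM under bexarotene and at 1.31 to 2.20 CPM under vehicle. Cmpk2, the kinase encoded beside Rsad2, was at 18.0 to 21.8 CPM under bexarotene and 15.3 to 25.7 CPM under vehicle. Its log2 fold change of -0.01 ± 0.15 had no stable sign. Samd9l, which restrains poxviruses, was at 0.06 ± 0.24, and Xaf1, an antagonist of apoptosis inhibitors, at 0.37 ± 0.27. Mx2 was at 0.403 to 1.83 CPM under bexarotene and at 1.01, 0.586, 0.825 and 0 CPM in the vehicle libraries, and its log2 fold change of 0.93 ± 0.93 rests in part on the library with a count of 0.

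All 6 guanylate-binding proteins and immunity-related GTPases, which attack the vacuoles of intracellular pathogens and respond mainly to interferon gamma, had a log2 fold change above 0. At an unadjusted p below 0.05, 3 were higher, against 4.88% of all genes. In all 6 the 2 highest libraries were bexarotene replicates 1 and 3, against 12.6% of all genes. Gbp2 was at 5.09, 2.43, 3.87 and 2.12 CPM under bexarotene and at 1.02 to 2.72 CPM under vehicle (log2 fold change 0.90 ± 0.36, SE). Igtp was at 6.22, 4.11, 6.43 and 3.71 CPM and at 2.38 to 4.17 CPM (0.64 ± 0.26). Gbp3 at 0.28 ± 0.28, Ifi47 at 0.70 ± 0.44 and Iigp1 at 0.44 ± 0.41 had wide errors. The Gbp, Irgm and Igtp, Ifit, Oas and Mx genes have close relatives, and reads shared between relatives may be split or dropped in counting.

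Within replicates 1 and 3 of both groups, and within replicates 2 and 4, the difference was of unlike size. With 2 against 2 libraries, all 38 genes had a log2 fold change above 0 within replicates 1 and 3 (median 1.16), against 52.2% of all genes. Of these, 18 passed at an adjusted p between 0.0155 and 0.0476 in edgeR's quasi-likelihood test, against 2.06% of all genes called higher. Bexarotene replicates 1 and 3 were the 2 highest libraries in 31 of the 38 genes. The 18 calls thus describe that pattern and are no test of it. Within replicates 2 and 4, 25 of 38 were above 0 (median 0.16), against 48.9% of all genes, 0 passed, and the smallest adjusted p was 0.905. Over all genes the share called higher in that fit was 0%. At an unadjusted p below 0.05, 3 of the 38 were higher in it, against 2.97% of all genes. With the replicate number as a block over all 8 libraries, 21 of the 38 were higher at that level, against 5.53% of all genes, and 0 passed. In that fit Ifit1, Ifit3, Mx1 and Igtp no longer reached it, and Dhx58 and Irf9 did. Bexarotene replicates 2 and 4 set against all 4 vehicle libraries, a comparison added after the data were seen, gave a median of 0.28. The difference between the 2 sets of replicates was not tested. Vehicle replicates 1 and 3 held Y-linked transcripts at 0.282 and 0.251 CPM, and vehicle replicates 2 and 4 at 134 and 141 CPM. All 4 bexarotene libraries held both Xist and Y-linked transcripts, so sex and replicate set cannot be told apart here.

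**Figure D4:**
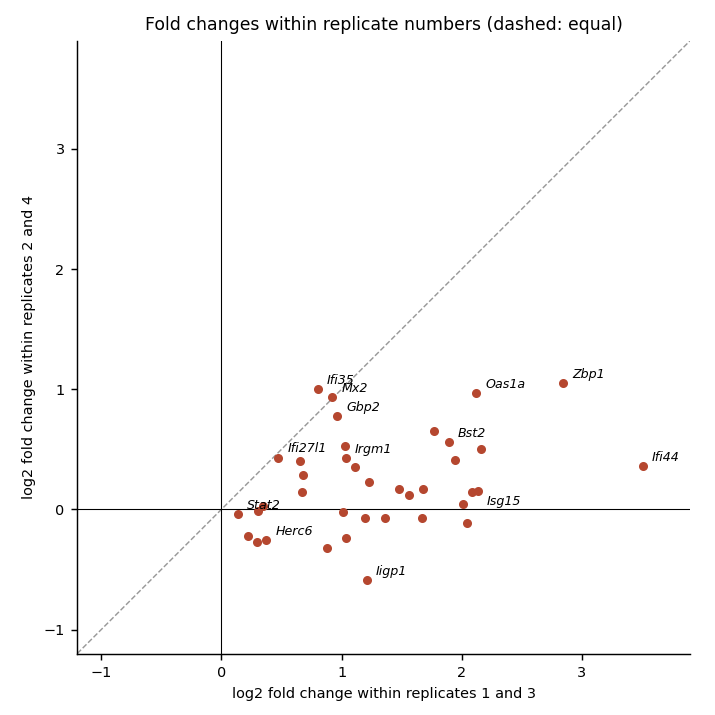
Log2 fold change of each of the 38 genes within replicates 1 and 3 (x axis) and within replicates 2 and 4 (y axis), 2 against 2 libraries each, with the dashed line marking equal values. Most points lie right of the line; Ifi44 is at 3.51 and 0.36, while Ifi35 (0.80 and 1.0) and Ifi27l1 (0.47 and 0.43) lie near it.

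Some genes had differences of like size in both sets, and 3 are given here that were chosen after their values were seen: 0.80 and 1.0 for Ifi35, 0.47 and 0.43 for Ifi27l1, and 0.96 and 0.78 for Gbp2. In Isg15 replicates 1 and 3 gave a log2 fold change of 2.13 and replicates 2 and 4 one of 0.16, in Ifit3 it was 2.01 and 0.05, and in Iigp1 1.21 and -0.59. Bst2 lay between, at 1.89 and 0.56.

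Markers of other cells moved with these libraries, and their part in the result was not tested. Summed striatal markers (10 of 11 found, none at 0 in any library) were highest in the same bexarotene libraries 1 and 3, as given above. Vehicle replicate 1 was next in striatal markers at 651 CPM, and its group level of the 38 genes was -0.57, the lowest. Summed red blood cell markers (5 of 5 found, none at 0) reached 37.5 and 24.5 CPM in bexarotene replicates 1 and 3 and stood at 4.59 to 16.8 CPM in the others. T and NK cell markers (9 of 10 found) summed to 7.05 and 4.85 CPM in bexarotene replicates 1 and 3 and to 0.965 to 2.33 CPM in the others. Nearly all of that was Cd4, at 6.40 and 4.40 CPM, and which cells it came from was not tested. The defining T cell gene Cd3e had 7, 0, 6 and 2 counts under bexarotene and 2, 0, 0 and 20 under vehicle, and 8 of the 9 markers were at 0 in at least 1 library. Monocyte and neutrophil markers (7 of 8 found, 5 of them at 0 in at least 1 library) summed to 3.54, 0.954, 2.77 and 0.827 CPM under bexarotene and to 0.917, 4.74, 0.896 and 1.34 CPM under vehicle. Bexarotene replicates 1 and 3 were thus exceeded by vehicle replicate 2 alone. Ependymal markers summed to 21.7 and 21.6 CPM in bexarotene replicates 1 and 3, against 12.4 to 17.9 CPM in the others. Pericyte and smooth muscle markers summed to 72.5 and 60.60 CPM there, against 46.6 to 60.57 CPM. Sums of astrocyte, oligodendrocyte and meningeal markers were not led by both bexarotene replicates 1 and 3. Neuronal markers were lowest in bexarotene replicates 1 and 3, which summed to 4079 and 4544 CPM, against 4838 to 5625 CPM in the others.

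Microglial markers were higher as well but in another order of libraries. Of 12 markers, 12 had a log2 fold change above 0 (median 0.36), and none was at 0. At an unadjusted p below 0.05, 9 were higher, against 4.88% of all genes. They summed to 597, 549, 531 and 714 CPM in bexarotene replicates 1 to 4 and to 431, 441, 541 and 504 CPM in vehicle replicates 1 to 4. The highest sum was in bexarotene replicate 4, where the interferon-stimulated genes were at 0.10, and bexarotene replicate 3, with 0.78, had less than vehicle replicate 3. Endothelial markers (8 of 8 found) summed to 295 to 351 CPM and to 257 to 331 CPM, and choroid plexus markers (8 of 8 found) to 76.7 to 1463 CPM, with the maximum in bexarotene replicate 2, and to 17.0 to 42.1 CPM. Levels also followed transcript length in some libraries: over 11453 genes, not independent of each other, the level relative to the 8-library mean had a Spearman rho with length of -0.416 and -0.43 in bexarotene replicates 1 and 3, and 0.0258 to 0.312 in the others. The 38 genes had a median length of 2556.5 nt against 2897 nt over all genes tested, and with an offset for length and GC content, added after the data were seen, their median log2 fold change was 0.80.

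The interferons themselves were at the limit of detection. Of 11 interferon ligand genes, 7 had 0 counts in every library, and none of the others had more than 1 count in a library. A count of 0 allows up to 0.0572 to 0.103 CPM per library (3 counts, counting error only). These limits use library totals with 1 row per gene, so they run higher than on the CPM scale used elsewhere here. Differences between the groups were not detectable at this depth.

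Among the receptors and kinases that read interferons no difference was detected. Of 8 tested, 5 had a log2 fold change above 0, and the median was 0.02. At an unadjusted p below 0.05, 0 differed, against 4.88% of all genes higher and 3.89% lower. With 8 genes, 0 is near those shares and does not show that the groups were level. The largest log2 fold change was 0.26 ± 0.14 (SE), for Il10rb. Ifnar1 was at 37.7, 36.1, 36.9 and 37.5 CPM under bexarotene and at 33.9, 36.2, 35.2 and 42.4 CPM under vehicle, and Ifnar2 at 13.1 to 17.8 CPM and 13.3 to 15.1 CPM. The log2 fold change was 0.0049 ± 0.09 (SE) for Ifnar1, whose sign depended on the fit, and 0.10 ± 0.11 for Ifnar2.

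Further STATs and IRFs, transcription factors of the pathway outside the 38 genes, were above 0 in 9 of 9, with a median log2 fold change of 0.23, and 0 passed over all genes. Irf5, which acts downstream of Toll-like receptors, was at 6.14, 6.03, 5.34 and 8.5 CPM under bexarotene and at 4.89, 3.79, 5.52 and 4.77 CPM under vehicle. It was highest in bexarotene replicate 4, and bexarotene replicate 3 lay inside the vehicle range. The fitted log2 fold change was 0.46 ± 0.18 (SE; edgeR quasi-likelihood adjusted p = 0.556).

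Genes of upstream nucleic acid sensing were above 0 in 12 of 13 (median 0.24). At an unadjusted p below 0.05, 4 were higher and 0 lower, against 4.88% and 3.89% of all genes. Ifi204, a DNA sensor of the same family as Aim2, was at 1.77, 0.752, 1.31 and 1.0 CPM under bexarotene and at 0.376, 0.413, 0.341 and 0.285 CPM under vehicle. The groups did not overlap. The fitted log2 fold change was 1.77 ± 0.40 (SE; edgeR quasi-likelihood adjusted p = 0.362, edgeR exact test adjusted p = 0.0353). Aim2, which forms an inflammasome on DNA, was at 0.76 ± 0.31, and Tmem173, or STING, the adaptor of cytosolic DNA sensing, at 0.44 ± 0.19. Of 14 negative regulators 10 were above 0 (median 0.11). At an unadjusted p below 0.05, 1 was higher, the phosphatase gene Ptpn6 (0.76 ± 0.25), against 4.88% of all genes.

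Interferon-induced genes outside the 38 were also mostly higher, with a smaller median. Of 58 tested, 53 had a log2 fold change above 0, against 50.2% of all genes, and the median was 0.42. At an unadjusted p below 0.05, 13 were higher and 0 lower, against 4.88% and 3.89% of all genes, and 0 passed over all genes. In 29 of 58 the 2 highest libraries were bexarotene replicates 1 and 3, against 12.6% of all genes. This list, too, was chosen with earlier results of these data known. Lgals3bp, a secreted glycoprotein, was at 56.1, 39.4, 41.2 and 56.5 CPM under bexarotene and at 29.1, 22.8, 32.5 and 25.9 CPM under vehicle. Ifitm2, a relative of Ifitm3, was at 7.93, 6.02, 5.94 and 5.22 CPM and at 3.74, 3.45, 3.51 and 2.90 CPM. Both were higher in every bexarotene library, and neither was led by replicates 1 and 3 alone. The log2 fold change was 0.81 ± 0.15 (SE) for Lgals3bp and 0.89 ± 0.17 for Ifitm2. Both had an edgeR quasi-likelihood adjusted p of 0.36, while DESeq2 gave adjusted p-values of 0.00155 and 0.00406. Psmb8, an immunoproteasome subunit, was at 0.73 ± 0.21, and B2m, which completes MHC class I at the cell surface, at 0.35 ± 0.10.

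**Figure D5:**
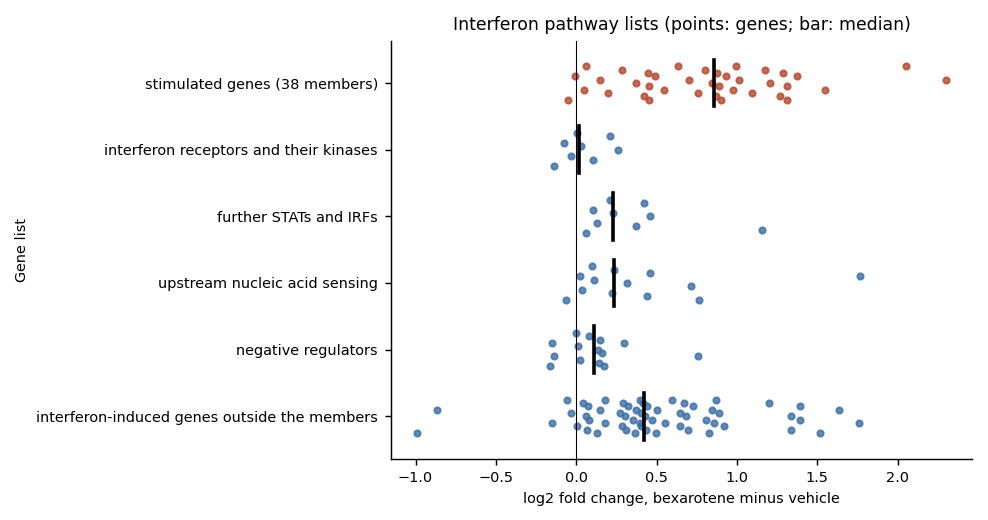
Log2 fold change (x axis, bexarotene minus vehicle) of each gene tested, in rows by list, with the 38 interferon-stimulated genes in red, the other lists in blue and a black bar at each median. The median is 0.86 for the 38 genes, 0.42 for interferon-induced genes outside them and 0.02 for receptors and their kinases.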

How the data were processed

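RNA was sequenced from the cortex of 8 samples of APP/PS1 mice. Per the labels' protocols, a Qiagen column kit was used for the RNA and a strand-marking TruSeq kit for the libraries. The authors deposited raw counts of reads for 28644 RefSeq transcript rows. The submitters' processing notes name the build mm9 and edgeR. Neither the aligner nor the counting tool, strand setting or gene models were stated, so a gene and an antisense neighbour may share reads. 0 columns of values were left out.

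Groups and replicate numbers came from the sample titles. All rows were fitted together with edgeR's quasi-likelihood test (edgeR 4.0.16, R 4.3.3) on 8 libraries, using TMM factors, filterByExpr, robust dispersions and no covariate. Benjamini-Hochberg adjustment ran over the 21285 rows tested, and an adjusted p below 0.05 was called. CPM used TMM-scaled library sizes, and log2 CPM a prior count of 2. Exact permutation tests were two-sided. The scripts were tested on simulated data. DESeq2 1.42.0, edgeR's exact test, limma-voom (limma 3.58.1), other scalings, filters and row choices, a replicate block and leaving out libraries were alternatives.

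Same-numbered libraries deviated together from their group means (r = 0.427, 0.278, 0.144 and 0.163 for replicates 1 to 4). On this check, beside the numbers in the titles, the replicate number was used as a block in an alternative fit. The labels name no pairing, and the main fit and the permutation tests were unpaired. Bexarotene replicate 3 correlated more with vehicle replicate 1 (0.439), and bexarotene replicate 4 more with vehicle replicate 2 (0.232), than with their own numbers. Genes named were every member by role and, of each other pathway list, at most the 4 with the smallest p, plus Ifnar1 and Ifnar2, and 1 further gene of that rule is not reported here. The members and lists were chosen with earlier results of these data known. Promoter windows came from RefSeq (GRCm38.p6), and exon overlaps and the check of start sites from GENCODE M21.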

Additional observations from a re-analysis of the deposited data

How the results depend on the processing

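All values are log2 fold changes or counts against the 4 vehicle libraries, and where they moved the cause was not tested. The direction of the median held in every alternative run. It was 0.16 with replicates 2 and 4 only and 0.28 with bexarotene replicates 2 and 4 against all vehicle libraries, a comparison added after the data were seen, as was the length and GC offset. Leaving out 1 library at a time gave 0.64 to 1.01. The number of genes called over the whole table was 1; DESeq2 called 104, edgeR's exact test 31, replicates 1 and 3 only 710, replicates 2 and 4 only 0, bexarotene replicates 2 and 4 against all vehicle 0, and leaving out 1 library 1 to 2 (2 without bexarotene replicate 2). Of the 38 genes, DESeq2 called 2, the exact test 1, replicates 1 and 3 only 18, and leaving out 1 library 0. The 18 describe the pattern of those libraries and are no test of it. At an unadjusted p below 0.05, limma-voom had 13 of 38 higher (5.18% of all genes), replicates 2 and 4 only 3 (2.97%), bexarotene replicates 2 and 4 against all vehicle 4 (1.83%), and leaving out 1 library 14 (without bexarotene replicate 3) to 26 (without bexarotene replicate 2), against 2.67% to 5.73% of all genes. Groups did not overlap, in either direction, in 36 of 38 with replicates 1 and 3 only (56.9% of all genes), in 14 of 38 with replicates 2 and 4 only (35.6% of all genes, a share near that of the 38), and in 7 to 16 on leaving out 1 library, against 6.38% to 11.8% of all genes (16 without bexarotene replicate 2, 15 without vehicle replicate 4). With the replicate block the median was 0.77, 21 genes had an unadjusted p below 0.05, 0 of the 38 and 1 gene in all were called, and no adjusted call among the 38 changed.

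Signs turned for some genes. With replicates 2 and 4 only these were Gbp3 -0.32, Ifi47 -0.068, Ifih1 -0.019, Ifit1 -0.11, Ifit2 -0.018, Ifnar1 -0.094, Ifnar2 -0.043, Igtp -0.072, Iigp1 -0.59, Samd9l -0.27, Stat2 -0.041, Usp18 -0.069 and Xaf1 -0.24. With bexarotene replicates 2 and 4 against all vehicle they were Gbp3 -0.070, Herc6 0.27, Ifi47 -0.094, Ifnar1 -0.0010, Ifnar2 -0.025, Iigp1 -0.38, Mx2 -0.098, Samd9l -0.37 and Stat2 -0.069. Cmpk2 was 0.021 with upper quartile factors and 0.021 with no composition factors, 0.0097 with the replicate block and 0.22 with replicates 1 and 3 only. Herc6 was 0.019 with limma-voom, 0.053 with the block, 0.37 with replicates 1 and 3 only and 0.11 with the length and GC offset. Ifnar1 was -0.0023 with RLE factors and -0.0027 with DESeq2, and Samd9l was -0.0015 with limma-voom. Leaving out 1 library gave -0.11 to 0.15 for Cmpk2, -0.29 to 0.20 for Herc6, -0.035 to 0.084 for Ifnar1, -0.13 to 0.19 for Samd9l and -0.020 to 0.13 for Stat2. Of the 38 genes, 24 were above 0 in every alternative that gave them a value, which for Mx1 and Zbp1 was 22 of 23. Low counts limit Mx1, Mx2, Zbp1 and the interferon ligands.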
